A study of Mus musculus with 2 samples.

Results

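The 7 genes described here encode receptors for the constant (Fc) part of antibodies, or a chain that such receptors share. They were selected by symbol from the 32285 genes listed in each of the 2 count matrices, and all 7 were present in both: Fcgr1, Fcgr3, Fcgr4, Fcer1g, Fcgr2b, Fcgrt and Fcmr. Transcripts were counted in single cells by droplet scRNAseq, in which each cell receives a barcode and each captured RNA molecule a unique molecular identifier (UMI). The cells came from BALB/cAnNCrl mice, female and 7 to 8 weeks old, bearing liver metastases of 4T1, a mammary carcinoma line of that strain. They were taken 5 days after hepatic arterial infusion (HAI) of CBL0137, an anticancer compound, at low or high dose, or of its vehicle. All 3 groups thus shared the strain, the tumor and the infusion, and the sources used here tie no amount of CBL0137 to either dose group. Each group was a pool of 2 mice per library and was marked by a hashtag, an antibody that carries an oligonucleotide barcode: A0301 for vehicle, A0305 for low dose and A0310 for high dose. Since a group was represented in a library by 1 pooled sample, nothing was replicated, and no test and no p-value was computed, and every interval below covers counting error only.

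Fc receptors couple antibodies to cells. Fcgr1, Fcgr3 and Fcgr4 encode activating receptors for IgG, which reach the surface and signal through the gamma chain encoded by Fcer1g. Fcgr2b encodes the only inhibitory receptor for IgG, known for restraining B cells and myeloid cells and, in the liver, for the uptake of small immune complexes by sinusoidal endothelium. Fcgrt encodes the heavy chain of the neonatal Fc receptor, which pairs with beta-2 microglobulin and returns IgG and albumin from endosomes to the blood, a task attributed to endothelium and macrophages. Fcmr encodes the receptor for IgM of lymphocytes, in the mouse chiefly B cells.

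The liver-labelled library held 9591 barcodes (median 4673 UMIs) and the spleen-labelled library 4830 (median 3368.5 UMIs). Of these, 3103, 3194 and 2138 barcodes were assigned in the liver-labelled library to vehicle, low and high dose, and 822, 1301 and 865 in the spleen-labelled library. The transcripts of liver cells went against the tissue labels. Clec4f, the defining gene of Kupffer cells, had 0 UMIs in the liver-labelled library, which allows up to 0.0437 counts per 1000000 UMIs (CPM), and 124.5 CPM in the spleen-labelled library. The summed level of 9 hepatocyte genes was 0.131 CPM against 70.5 CPM, that of 9 endothelial genes 38.9 CPM against 388 CPM, and that of 8 B cell genes 720 CPM against 185 CPM. In the names of the deposited files the tissue words are swapped relative to the labels. The libraries are therefore called by their labels, no tissue is read into them, and library and tissue cannot be told apart. The study's methods describe cells isolated with CD11b beads, yet T and B cell-like cells, which as a rule lack that marker, were found in each library. Only 15 barcodes were found in both libraries. Cells were grouped into 22 clusters in the liver-labelled library and 19 in the spleen-labelled library, without use of the 7 genes, and a cluster was called X-like from marker genes of a cell type. Hepatocyte-like, Kupffer cell-like, endothelial-like and 4T1 tumor cell-like clusters were found in the spleen-labelled library only. In what follows, the level of a gene in a class is its UMI count summed over the cells of a group, per 1000000 UMIs of those cells.

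Of the 7 genes, 5 lie on chromosome 1 and 4 of these close together (mm10, GENCODE M21). Fcgr2b was at 170958617 to 170976547, Fcgr4 at 171018920 to 171029761, Fcgr3 at 171051174 to 171064935 and Fcer1g at 171229572 to 171234365, with Fcmr farther off at 130865669 to 130880791. Fcgr1 was on chromosome 3 (96282909 to 96293969) and Fcgrt on chromosome 7 (45092990 to 45103851). Fcgr2b, Fcgr3 and Fcgr4 are related in sequence, and no source used here says how reads shared by such genes were counted. The last 100 bases before the start site are shown for the 4 receptors for IgG and their gamma chain (RefSeq, build GRCm38.p6, read 5′ to 3′ along the gene), because these 5 are described most closely below. RefSeq and GENCODE starts differ, and the stretches shown for Fcgr3 and Fcgr2b lie wholly within the GENCODE spans given above. The motifs were chosen after the sequences had been read. Capitals mark the letters GAGGAA on either strand (TTCCTC on the other), a motif read by the myeloid factor PU.1. Shorter letters within it, such as GGAA, were not searched. Capitals also mark the interferon-response motif ISRE (GAAA repeated after 2 bases), which did not overlap GAGGAA.
Fcgr1, chr3:96293970-96294069, minus strand: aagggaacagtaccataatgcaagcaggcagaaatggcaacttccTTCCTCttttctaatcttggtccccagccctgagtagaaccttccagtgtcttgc
Fcgr3, chr1:171059395-171059494, minus strand, the start site nearer to the gene body of 2: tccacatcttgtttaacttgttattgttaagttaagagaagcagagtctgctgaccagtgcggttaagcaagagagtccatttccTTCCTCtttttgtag
Fcgr4, chr1:171018826-171018925, plus strand: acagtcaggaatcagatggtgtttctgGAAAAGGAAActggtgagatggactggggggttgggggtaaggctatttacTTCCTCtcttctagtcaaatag
Fcer1g, chr1:171234350-171234449, minus strand: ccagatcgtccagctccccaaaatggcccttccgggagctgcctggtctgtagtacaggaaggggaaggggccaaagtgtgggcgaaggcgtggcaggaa
Fcgr2b, chr1:170976072-170976171, minus strand: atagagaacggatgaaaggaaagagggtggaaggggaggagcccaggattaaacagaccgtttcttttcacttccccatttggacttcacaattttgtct
The 3 activating receptors carried GAGGAA 50, 10 and 17 bases before the start site, and Fcmr carried it 31 bases before, while Fcer1g, Fcgr2b and Fcgrt did not. Of 32851 RefSeq promoters, 9.82% held GAGGAA in the same window and 0.983% held ISRE, which among the 7 genes was found in Fcgr4 alone. The interferon-gamma motif GAS (TTCNNNGAA), held by 7.02% of promoters within 250 bases, was found only in Fcgr1, 101 bases before the start site. These matches describe letters and not binding.

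The receptors differed in the classes that carried them. Fcer1g and Fcgr3 were found throughout the myeloid classes, Fcgr1 in monocyte-like and macrophage-like cells, Fcgr2b and Fcgrt highest in endothelial-like cells, and Fcmr in B cell-like cells. These statements describe the vehicle group in classes of at least 20 cells unless said otherwise.

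**Figure D1:**
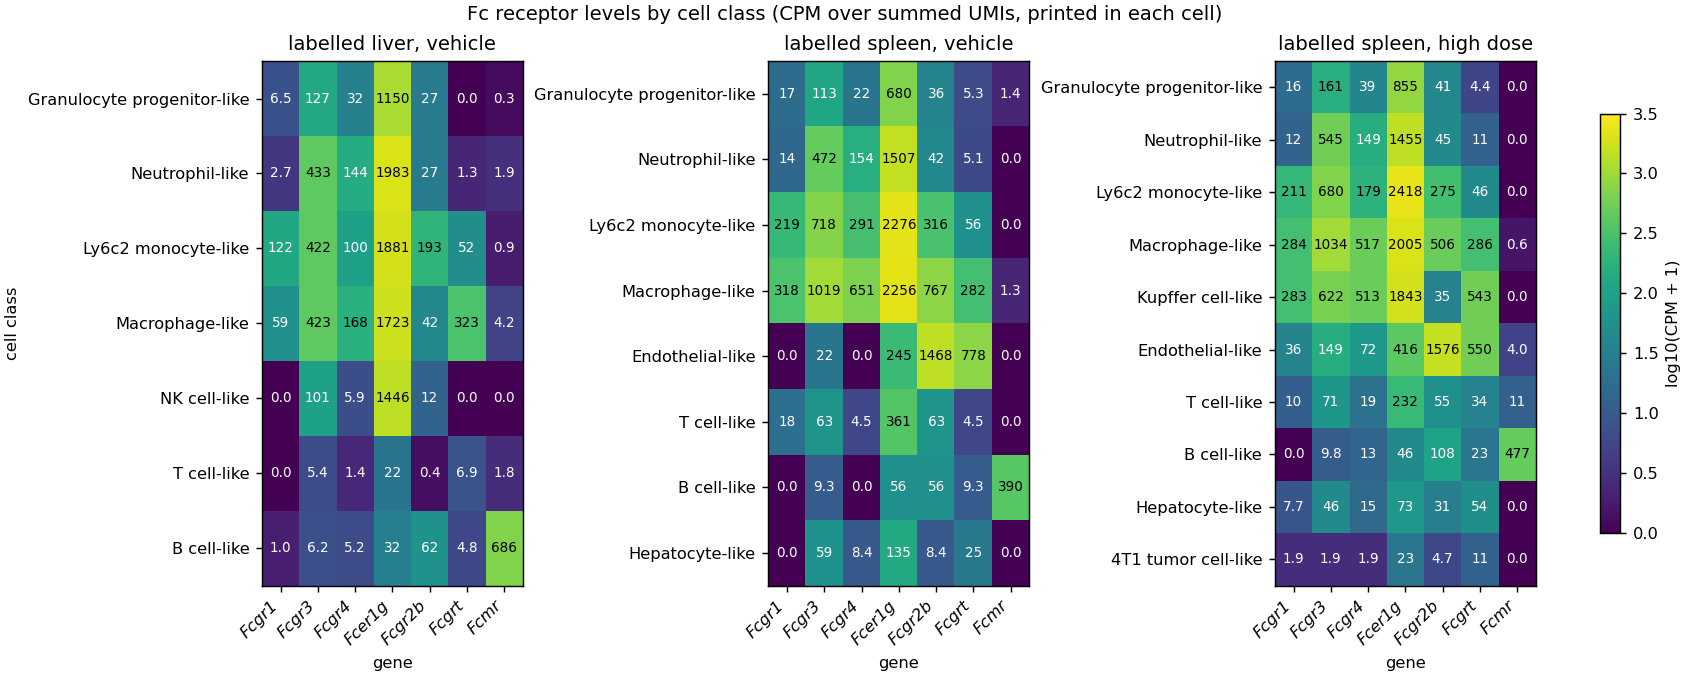
Level of the 7 Fc receptor genes (columns, in CPM over summed UMIs, printed in each cell, color on a log10 scale of CPM + 1) in cell classes with at least 20 cells (rows), for the vehicle group of both libraries and the high dose group of the spleen-labelled library. Fcgr2b and Fcgrt peak in endothelial-like cells (1468 and 778 CPM in vehicle), Fcmr in B cell-like cells, and Kupffer cell-like cells carry the activating receptors with little Fcgr2b (35.0 CPM).

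Fcer1g, the signaling gamma chain, was carried by every myeloid class. In the liver-labelled library its level was 1984 CPM in neutrophil-like, 1881 in Ly6c2 monocyte-like, 1723 in macrophage-like and 1150 in granulocyte progenitor-like cells. In the spleen-labelled library it was 2276 CPM in Ly6c2 monocyte-like, 2256 in macrophage-like, 1507 in neutrophil-like and 680 in granulocyte progenitor-like cells. The intervals of the leading pair in the spleen-labelled library overlapped (2170 to 2386 and 2150 to 2367). NK cell-like cells, found in the liver-labelled library, carried 1446 CPM of Fcer1g and 101 CPM of Fcgr3, the only activating receptor for IgG that NK cells are known to use, and 0 UMIs of Fcgr1. T cell-like cells of that library had 22.1 CPM of Fcer1g. In the spleen-labelled library the T cell-like class had 361 CPM, and its cells also carried NK genes (6 of 6 detected, 2136 CPM in sum), so that class is a poor measure of background for Fcer1g there. B cell-like cells of the spleen-labelled library had 55.7 CPM.

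Fcgr3, the activating receptor of broadest use in the mouse, was found in the same classes. It reached 433 CPM (421 to 445) in neutrophil-like cells of the liver-labelled library and 472 CPM (440 to 505) in those of the spleen-labelled library. Ly6c2 monocyte-like cells had 422 and 718 CPM, and macrophage-like cells 423 and 1019 CPM, in the 2 libraries, liver-labelled first. In the liver-labelled library the intervals of these 3 classes overlapped. Granulocyte progenitor-like cells, which make the primary granules and precede neutrophils, had 127 and 113 CPM.

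Fcgr4, a receptor for IgG2a and IgG2b of neutrophils, monocytes and macrophages, was at 144 CPM (138 to 151) in neutrophil-like cells of the liver-labelled library and 154 CPM (136 to 174) in those of the spleen-labelled library. Granulocyte progenitor-like cells had 32.4 and 21.8 CPM. Its highest level was 651 CPM (594 to 711) in macrophage-like cells of the spleen-labelled library, a class led by Arg1, Ccl8 and the C1q genes. Macrophage-like cells of the liver-labelled library, led by C1qa, Vcam1 and Spic, had 168 CPM (120 to 228), with an interval that overlapped that of the neutrophil-like cells.

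Fcgr1, the high-affinity receptor for IgG, set monocytes and macrophages apart from neutrophils. Its level was 2.68 CPM in neutrophil-like cells and 122 CPM in Ly6c2 monocyte-like cells of the liver-labelled library. In the spleen-labelled library it was 14.2 CPM in neutrophil-like, 219 in Ly6c2 monocyte-like and 318 in macrophage-like cells. The monocyte-like cells, 5.06% of the vehicle cells of the liver-labelled library, held 84.3% of its UMIs there.

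Fcgr2b, the inhibitory receptor, was highest outside the leukocytes when all cells were kept. Endothelial-like cells of the spleen-labelled library, a class led by Clec4g, Ptprb and Kdr, carried 1468 CPM (1228 to 1741) in vehicle, 2082 in low dose and 1576 (1468 to 1691) in high dose. All 9 endothelial markers were detected in each group, with Stab2, a scavenger receptor of sinusoidal endothelium, at 612, 1276 and 635 CPM. Macrophage-like cells of that library had 767 CPM in vehicle, Ly6c2 monocyte-like cells 316 CPM and neutrophil-like cells 42.1 CPM. In high dose, with 110 endothelial-like and 84 macrophage-like cells, the former exceeded the latter by 1.64 on the log2 scale (1.498 to 1.78), in a comparison in which 31.6% of 5710 genes with at least 50 UMIs passed 2-fold. After every cell was thinned to 500 UMIs, Fcgr2b was seen in 37.1% of endothelial-like cells in vehicle and 36.4% in high dose, against 4.65% and 1.78% of T cell-like cells. That class also carried NK genes and had 14 Fcgr2b UMIs in its 43 vehicle cells, so it is not a clean background for Fcgr2b. Without thinning the endothelial-like shares were 71.4% and 73.6%, at median depths of 1388 and 3462 UMIs. With a limit of 10% on mitochondrial UMIs only 7 of the 35 vehicle endothelial-like cells remained, under the minimum of 20, and macrophage-like cells were then the highest class left for Fcgr2b and for Fcgrt. The activating receptors were lower than Fcgr2b in the same cells. Fcgr4 had 0 UMIs in vehicle and 72.3 CPM in high dose, where the T cell-like class had 4.52 and 19.0 CPM.

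Fcgrt, the neonatal receptor chain, shared this place with a different second class. Endothelial-like cells had 778 CPM (607 to 983) in vehicle, 1071 in low dose and 550 (487 to 619) in high dose. Kupffer cell-like cells had 691 CPM in low dose (25 cells) and 543 (486 to 605) in high dose (39 cells), an interval that overlapped that of the endothelial-like cells. Macrophage-like cells had 282 CPM in the spleen-labelled library and 323 CPM in the liver-labelled library, and neutrophil-like cells 5.12 and 1.34 CPM. In hepatocyte-like cells, which are known to use this receptor, its level was 25.3 CPM in vehicle and 53.9 in high dose, in a class whose leading genes were mostly mitochondrial.

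Kupffer cell-like and macrophage-like cells of the spleen-labelled library differed most in the inhibitory receptor. The class named for Kupffer cells had Clec4f at 3533 CPM in high dose, against 4.12 CPM in the macrophage-like class. In high dose Fcgr1 was at 283 CPM in Kupffer cell-like and 284 in macrophage-like cells, a log2 ratio of -0.00183 with an interval from -0.26 to 0.25. Fcgr4 was at 513 and 517 CPM, a log2 ratio of -0.011 with an interval from -0.20 to 0.18. Fcgr3 was at 622 and 1034 CPM (-0.73 on the log2 scale, -0.90 to -0.57). Fcgr2b was at 35.0 CPM (21 UMIs) in Kupffer cell-like and 506 CPM in macrophage-like cells, lower by a log2 ratio of -3.85 (-4.55 to -3.23). It was the only one of the 6 genes with at least 50 UMIs in this comparison to pass 2-fold, while 15% of 5635 genes did. Fcgrt was higher in Kupffer cell-like cells by 0.93 (0.72 to 1.13). In low dose, Fcgr2b had 3 UMIs in 25 Kupffer cell-like cells (13.03 CPM) against 627 CPM in macrophage-like cells, a log2 ratio of -5.59 (-7.87 to -4.04). There Fcgr1 (-0.71, -1.21 to -0.24), Fcgr3 (-1.19, -1.495 to -0.90), Fcgr4 (-0.37, -0.68 to -0.07) and Fcer1g (-0.38, -0.53 to -0.24) were also lower in Kupffer cell-like cells and Fcgrt higher (1.81, 1.51 to 2.10). There 3 of 6 receptor genes passed 2-fold (Fcgr2b, Fcgr3 and Fcgrt), while 22.8% of genes did.

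The inhibitory share of the UMIs, which are not scaled to gene length, differed between classes. Of the summed UMIs of Fcgr1, Fcgr2b, Fcgr3 and Fcgr4, Fcgr2b made up 98.5% (94.7 to 99.8) in vehicle endothelial-like cells of the spleen-labelled library. In low and high dose that share was 89.5% (87.0 to 91.7) and 86.0% (83.6 to 88.2). In vehicle cells of that library Fcgr2b made up 27.8% (25.9 to 29.8) in macrophage-like and 20.5% (18.2 to 22.9) in Ly6c2 monocyte-like cells. In macrophage-like cells of the liver-labelled library it made up 6.06% (2.94 to 10.9). It made up 6.17% in neutrophil-like cells of the spleen-labelled library and 4.53% in those of the liver-labelled library. In Kupffer cell-like cells of the high dose group it was 2.41% (1.497 to 3.66). In B cell-like cells of the liver-labelled library, where Fcgr2b is the Fc receptor for IgG that B cells are known to carry, it was 83.3% in vehicle, 94.7% in low dose and 93.1% in high dose.

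Fcmr, the receptor for IgM, belonged to the B cell-like class. The class had 686 CPM in vehicle, 453 in low dose and 571 in high dose in the liver-labelled library, and 390, 460 and 477 CPM in the spleen-labelled library. B cell-like cells held 97.6%, 97.3% and 96.9% of all its UMIs in the 3 groups of the liver-labelled library. Neutrophil-like cells, taken as background, had 1.93 CPM in vehicle of that library and 0 UMIs in the spleen-labelled library. Thinned to 500 UMIs, 27.8% of vehicle B cell-like cells of the liver-labelled library showed Fcmr, against 0.07% of neutrophil-like cells.

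For each receptor, 8417 genes were ranked by how closely their levels tracked it over the 15 combinations of class and library. Genes picked in this way share classes with the receptor by construction. The likeness is Pearson's r of log2(CPM + 10) over these points, which share libraries and depth, and is a description only. The closest for Fcer1g were Tyrobp (r = 0.98), the adaptor with the same kind of signaling motif, Anxa2 and Ugp2. For Fcgr1 they were Trem2, Myof and Clec4a1, for Fcgr3 Lst1, Ccl6 and Lilrb4a, and for Fcgr4 Tlr13, Lrrc25 and Mmp19. For Fcgr2b they were Cd93, Gnaq and Ndrg1 (r = 0.94, 0.94 and 0.92), for Fcgrt Selenop, Nrp1 and Slc43a2, and for Fcmr the B cell genes Pax5, Ighd and Ms4a1 (r = 0.995, 0.995 and 0.994). Between receptors, r was 0.93 for Fcgr3 with Fcer1g, 0.94 for Fcgr4 with Fcgr3, 0.75 for Fcgr2b with Fcgrt and -0.61 for Fcmr with Fcer1g.

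Within named classes, few receptor comparisons between a dose group and vehicle passed 2-fold. Over 30 contrasts of a dose group with vehicle in a named class, 104 comparisons of a receptor gene had at least 50 UMIs over both groups. Of these, 2 passed 2-fold (1.92%), both in endothelial-like cells, while 4.04% of all comparisons of genes in the same contrasts did. The other 102 lay between -0.99 and 0.85 on the log2 scale. The lowest was Fcgr4 in macrophage-like cells of the liver-labelled library in low dose (17 UMIs against 40 in vehicle). There Fcgr3 was at -0.69 and Fcgrt at -0.60, while Fcer1g was at 0.43. In granulocyte progenitor-like cells of the spleen-labelled library, Fcgr4 was at 0.82 in high dose and -0.72 in low dose. In those of the liver-labelled library it was at 0.21 and 0.15. The median gene of the spleen-labelled contrasts was at -0.23 in high dose and 0.11 in low dose. That class joined clusters 9 and 10. Cluster 9, led by Ctsg, Mpo and Myb, held 67 vehicle, 80 low dose and 14 high dose cells. Cluster 10, led by Cebpe, Fcnb and Camp, held 61, 52 and 43. The part of this mix in the Fcgr4 ratios was not tested. Counting intervals lay above 0 in 18 and below 0 in 30 of the 104 comparisons. The low and high dose contrasts share their vehicle cells. The clusters without a name were left out of these counts. Pooled in the liver-labelled library, 3 of their 4 receptor genes with enough UMIs passed 2-fold in high dose and 1 of 4 in low dose. In the spleen-labelled library 0 of 5 passed at either dose. The low count thus holds for the named classes only.

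**Figure D2:**
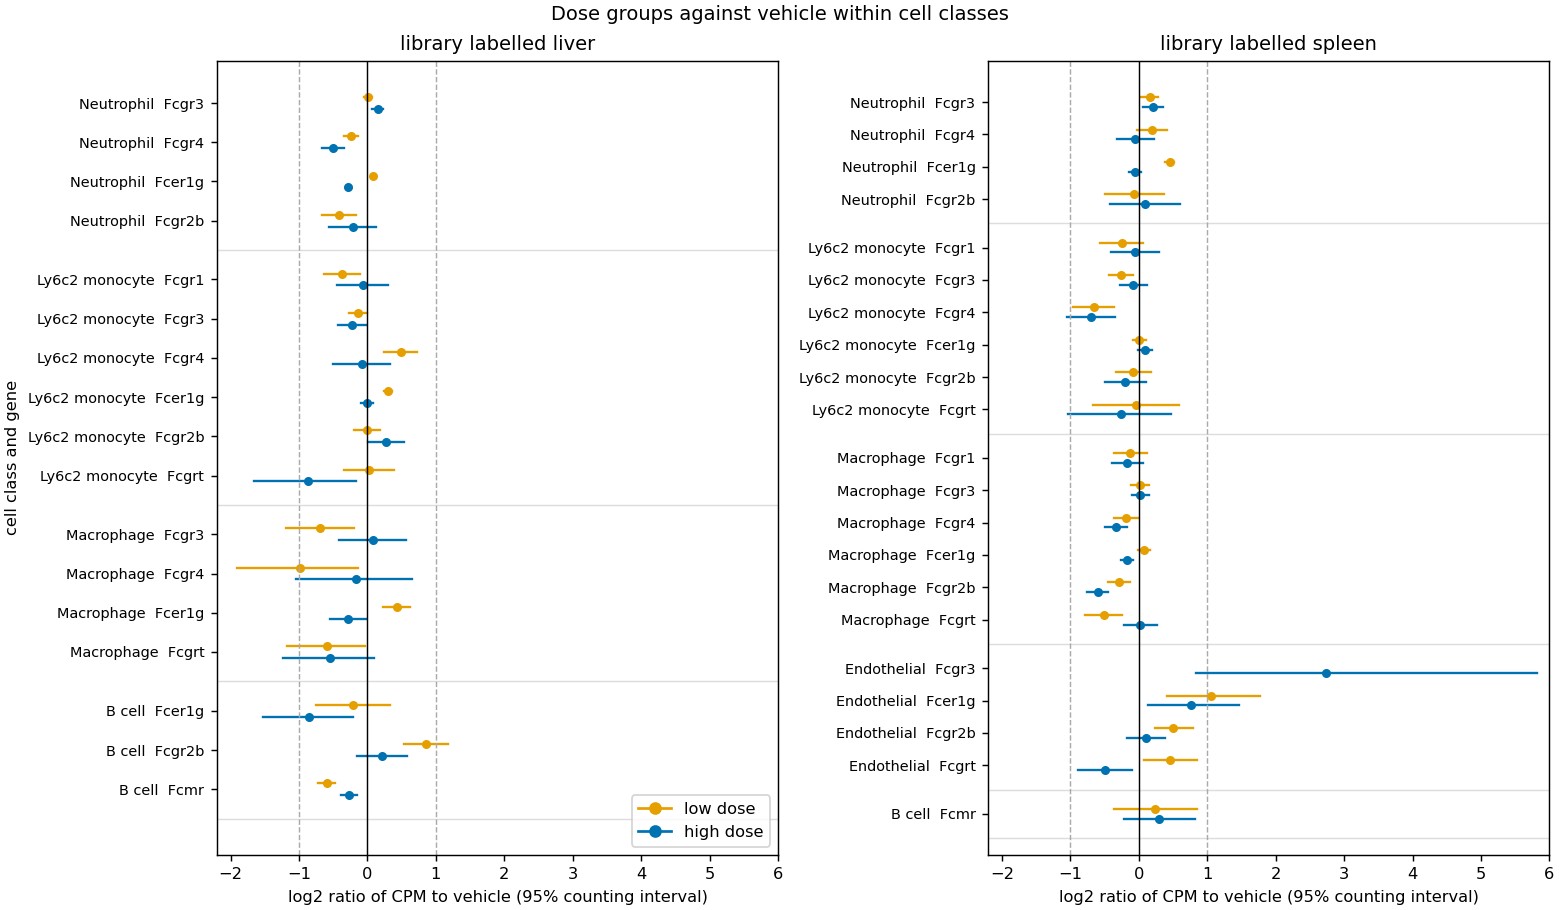
Log2 ratio of CPM to vehicle (x axis; points, with 95% counting intervals as lines) for each receptor gene with at least 50 UMIs over both groups in 5 cell classes (y axis), for the low dose in orange and the high dose in blue; dashed lines mark 2-fold. Most points lie within 1 of 0, and Fcgr3 in endothelial-like cells of the high dose group (2.74) rests on 2 UMIs in vehicle.

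Neutrophil-like cells were a smaller part of the high dose group than of vehicle in both libraries, 9.31% against 46.1% of cells in the liver-labelled library and 13.1% against 36.5% in the spleen-labelled library. Of the 4 receptor genes with enough UMIs in this class, 0 of 4 passed 2-fold in any of the 4 contrasts. Of all genes, 13.9% and 1.41% did in the liver-labelled library (high and low dose), and 6.36% and 2.08% in the spleen-labelled library. Fcgr4 in the liver-labelled library was at 144 CPM in vehicle, 122 in low dose and 102 in high dose, a log2 ratio of -0.51 (-0.66 to -0.35) in high dose. Fcer1g was at 1984, 2094 and 1635 CPM (-0.28 in high dose, -0.32 to -0.24). Fcgr3 was at 433, 435 and 479 CPM (0.15 in high dose, 0.07 to 0.22), and the ratio turned to -0.06 when each cell was weighted equally. The median gene of the high dose contrast had a log2 ratio of -0.34 and that of the low dose contrast -0.11. Relative to the former, Fcgr4 was at -0.17, Fcer1g at 0.06 and Fcgr3 at 0.49.

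The class was not made of the same cells in the 3 groups. In the liver-labelled library, clusters 2 and 3, both with Il1b and Igfbp6 among their leading genes, held 45.5% and 24.6% of vehicle neutrophil-like cells and 4.52% and 1.51% of those of the high dose group. Cluster 6, led by Stfa3, Stfa2 and Cstdc4, went from 11.1% to 55.8%, and cluster 7, led by the granule genes Ltf, Camp and Ngp, from 13.1% to 27.1%. Clusters 2 and 3 had the highest Fcgr4 (276 and 216 CPM over all groups, against 116 in cluster 6, 107 in cluster 9 and 60.7 in cluster 7). They also had the highest Fcer1g (2938 and 2786 CPM, against 1786, 1847 and 1514 CPM). Clusters 2 and 3 were also the shallowest of these, with medians of 3305.5 and 3512.5 UMIs. Those of clusters 6, 9 and 7 were 13174, 11815 and 22941. The levels are per UMI, so the order per cell can differ.

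Within the clusters that kept at least 20 cells of the high dose group, Fcgr4 was not lower in high dose. In cluster 6 Fcgr4 was at 104 CPM in vehicle and 123 in high dose (0.23, -0.04 to 0.51), in cluster 9 at 95.6 and 125 CPM (0.39, -0.12 to 0.89), and in cluster 7 at 58.4 and 62.5 CPM (0.10, -0.25 to 0.43). Fcer1g was at 1729.6 and 1731 CPM in cluster 6 (0.00108, -0.07 to 0.07). Fcgr3 was at 493 and 592 CPM in cluster 6 (0.26, 0.14 to 0.39) and at 262 and 322 CPM in cluster 7 (0.30, 0.15 to 0.45), higher in high dose in both. In low dose, cluster 2 had less Fcgr4 than in vehicle (215 against 305.3 CPM, -0.51, -0.71 to -0.30) and less Fcgr2b (28.5 against 51.5 CPM, -0.86, -1.44 to -0.31). The median depth of neutrophil-like cells moved with these shifts, 4366 UMIs in vehicle and 18606 in high dose, and its part in the ratios was not tested.

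**Figure D3:**
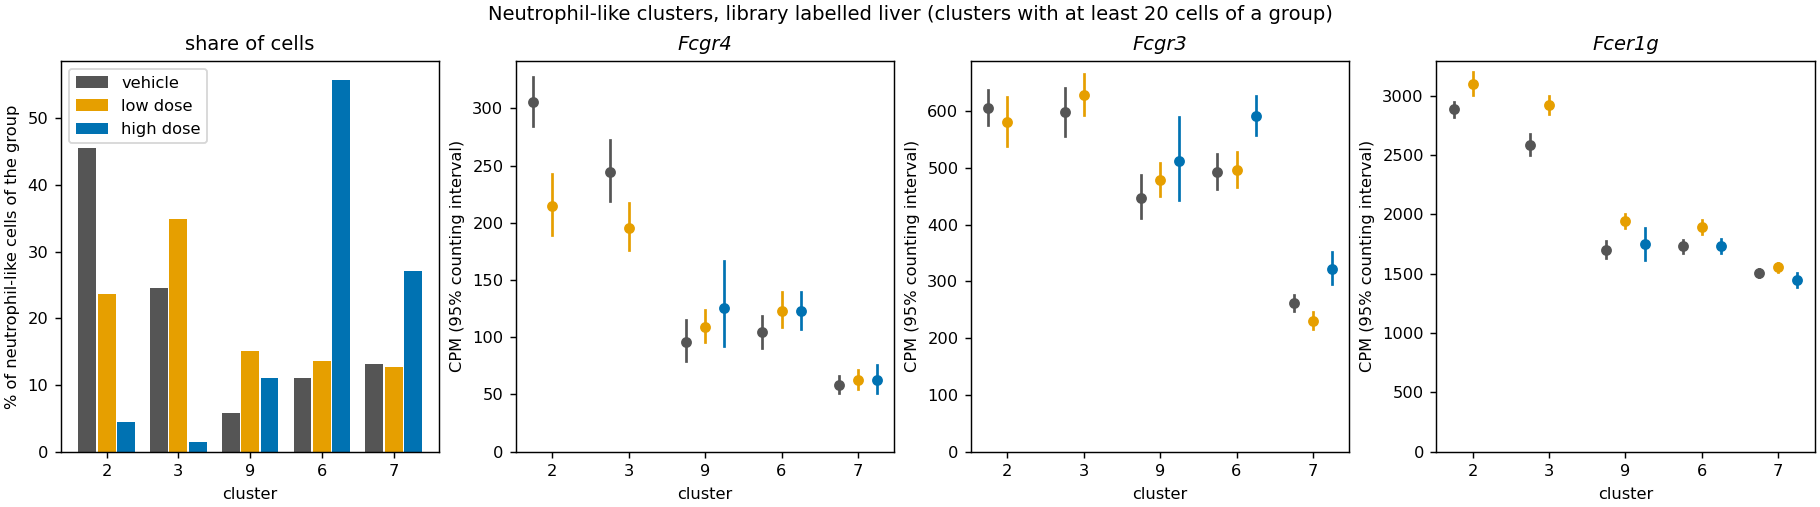
Neutrophil-like clusters of the liver-labelled library (x axis): share of the neutrophil-like cells of each group (left, %) and levels of Fcgr4, Fcgr3 and Fcer1g (CPM, points with 95% counting intervals) for clusters with at least 20 cells of a group. Clusters 2 and 3, high in Fcgr4, make up most vehicle cells and few high dose cells, while Fcgr4 differs little between groups in clusters 6 and 7.

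In the spleen-labelled library, neutrophil-like Fcgr4 was at 154 CPM in vehicle, 177 in low dose and 149 in high dose, with intervals of the ratio that spanned 0 (-0.32 to 0.22 in high dose). Fcgr3 was at 472, 526 and 545 CPM (0.21 in high dose, 0.06 to 0.35). The cells differed here too: cluster 2 held 34% of vehicle and 2.65% of high dose neutrophil-like cells, cluster 0 held 32% and 64.6%, and the median depth was 3477 and 11390 UMIs. Within cluster 0, Fcgr3 was at 0.36 (0.16 to 0.56) and Fcgr4 at 0.34 (-0.06 to 0.73) in high dose. Fcer1g was at 1507, 2059 and 1455 CPM, higher in low dose by 0.45 (0.38 to 0.52). Here cluster 13, led by Bcl2l15, Orm1 and Saa1, held 20.7% of low dose neutrophil-like cells and 0.667% of those of vehicle, and over all groups it had 376 CPM of Fcgr4, 115 CPM of Fcgr2b and 2667 CPM of Fcer1g. Fcer1g was higher in low dose also within cluster 0 (0.32, 0.21 to 0.44), cluster 2 (0.41, 0.24 to 0.58), cluster 6 (0.36, 0.20 to 0.53) and cluster 11 (0.28, 0.14 to 0.41).

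Macrophage-like cells of the spleen-labelled library carried less Fcgr2b at each dose: 767 CPM in vehicle, 627 in low dose and 506 in high dose. The log2 ratio was -0.29 (-0.45 to -0.13) in low dose and -0.60 (-0.75 to -0.45) in high dose, and it stayed between -0.76 and -0.58 in high dose over 9 other ways of processing. Fcgr4 went the same way at 651, 572 and 517 CPM (-0.33 in high dose, -0.49 to -0.17). Fcgrt was lower in low dose only, at 282 CPM in vehicle, 197 in low dose (-0.51, -0.79 to -0.24) and 286 in high dose (0.02, -0.21 to 0.26). Fcgr3 was level at 1019, 1033 and 1034 CPM, with an interval of -0.10 to 0.15 in high dose, and Fcgr1 was at 318, 292 and 284 CPM (-0.39 to 0.07). No receptor gene of the 6 with enough UMIs passed 2-fold, against 3.17% of genes in high dose and 2.65% in low dose. Neutrophil markers summed to 952, 6430 and 5373 CPM in these cells (9 of 9 detected in each group) and macrophage markers to 9008, 8682 and 10943 CPM, and their part in the ratios was not tested.

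Ly6c2 monocyte-like cells of the spleen-labelled library had less Fcgr4 in both dose groups, at 291 CPM in vehicle, 184 in low dose and 179 in high dose. The log2 ratios were -0.66 (-0.95 to -0.36) and -0.70 (-1.05 to -0.35). In the liver-labelled library the same class had 99.5, 139 and 94.3 CPM, a ratio of 0.49 (0.24 to 0.73) in low dose and -0.08 (-0.50 to 0.33) in high dose. Fcgrt was furthest from vehicle in high dose of the liver-labelled library, at 52.4 CPM in vehicle and 28.8 in high dose (18 UMIs, a ratio of -0.87, -1.65 to -0.16), and Fcer1g was at 0.30 (0.24 to 0.36) in low dose of that library. Among Fcgr1, Fcgr2b and Fcgr3 of this class, the log2 ratios lay between -0.37 (Fcgr1, low dose, liver-labelled library) and 0.27 (Fcgr2b, high dose, liver-labelled library). Of the 6 genes with enough UMIs, none passed 2-fold in these 4 contrasts. Of all genes, 6.74% and 2.16% did in the liver-labelled library (high and low dose), and 3.62% and 2.46% in the spleen-labelled library. The high dose group of the liver-labelled library held 26 such cells.

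Among the named classes, endothelial-like cells held the 2 receptor comparisons that passed 2-fold. Fcgr3 had 2 UMIs in the 35 vehicle cells (22.2 CPM), 129 CPM in the 104 low dose cells and 149 CPM in the 110 high dose cells. The log2 ratio in high dose was 2.74 with an interval from 0.84 to 5.81, where 10.1% of genes passed. The Fcgr3 UMIs lay in 1, 9 and 15 cells of the 3 groups. In high dose these 15 cells were deeper than the other 95 (median 7259 against 3261 UMIs). Fcer1g was found in 66.7% of the 15 and in 27.4% of the 95. Fcer1g was at 245 CPM in vehicle, 509 in low dose and 416 in high dose, a ratio of 1.06 (0.41 to 1.77) in low dose, where 10.5% of genes passed. The Fcer1g ratio no longer passed 2-fold with each cell weighted equally (0.29), with log-normalization (0.91) or without the 20 most abundant genes (0.96). Both genes were carried by the myeloid classes and also by NK cell-like cells of the liver-labelled library. The summed macrophage markers were higher in the dose groups as well. They were at 122 CPM in vehicle (4 of 6 detected, C1qc and Adgre1 at 0), 711 in low dose (5 of 6, Adgre1 at 0) and 1265 CPM in high dose (6 of 6). Ly6c2 monocyte markers were at 22.2, 172 and 76.3 CPM and neutrophil markers at 1812, 3064 and 685 CPM. The part of these transcripts in the ratios was not tested.

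Fcgr2b and Fcgrt, the receptors highest in this class, were both higher in low dose and parted in high dose. Fcgr2b was higher in low dose by 0.50 (0.23 to 0.79) and at 0.10 (-0.16 to 0.38) in high dose. With the other hashtag calls Fcgr2b came to 0.06 in low dose and to -0.47 or -0.52 in high dose, and with each cell weighted equally to 0.30 and -0.17. Fcgrt was at 0.46 (0.08 to 0.85) in low dose, which became -0.02 or 0.05 with the other hashtag calls, and at -0.50 (-0.88 to -0.10) in high dose, between -0.66 and -0.15 over 9 alternatives. Most endothelial-like cells had a high mitochondrial share (median 17.5%, 17.8% and 21.7% of UMIs in vehicle, low dose and high dose), and 7 of 35, 28 of 104 and 19 of 110 passed a limit of 10%.

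B cell-like cells of the liver-labelled library had more Fcgr2b and less Fcmr in low dose. Fcgr2b was at 61.9 CPM in vehicle, 111.6 in low dose and 71.9 in high dose (0.85 in low dose, 0.53 to 1.18). Fcmr went the other way at 686, 453 and 571 CPM (-0.60 in low dose, -0.72 to -0.48, and -0.26 in high dose, -0.38 to -0.15). No receptor gene passed 2-fold, against 1.57% of genes in low dose and 1.46% in high dose. Cluster 18, led by Pmepa1 and Arap2, held 148 of the 550 low dose B cell-like cells and 2 of the 528 vehicle cells, and over all groups it had 139 CPM of Fcgr2b and 196 CPM of Fcmr. Cluster 20, led by the pre-B cell genes Vpreb3 and Vpreb1, held 46 vehicle cells and 1 low dose cell and had 5.92 CPM of Fcgr2b and 29.6 CPM of Fcmr. Cluster 8, a shallow cluster (median 852 UMIs in vehicle and 767 in low dose), held 64 vehicle cells and 149 low dose cells. Within cluster 1, the main B cell-like cluster, the low dose ratios were smaller and of the same sign (0.56 for Fcgr2b, 0.19 to 0.94, and -0.39 for Fcmr, -0.52 to -0.26). The B cell-like cells of the spleen-labelled library were 31 in vehicle and 34 in low dose, and Fcmr there was at 0.24 (-0.36 to 0.85) in low dose.

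Across all cells of a group, receptor levels were compared with what the mix of classes alone would give. Fewer cells of a type and less RNA per cell cannot be told apart in such sums. In the liver-labelled library, high dose against vehicle, Fcgr3 was at 274 CPM in vehicle and 148 in high dose (-0.89 on the log2 scale, -0.95 to -0.82). Keeping each class at its vehicle level and changing only the share of UMIs that came from each class gave -0.92. For Fcgr1 the observed ratio was -1.44 (-1.75 to -1.14) and the ratio from make-up alone -1.48, and for Fcgr2b they were -0.72 and -0.73. Fcgr4 was lower than the mix gave (-1.37 against -0.92), as were Fcer1g (-1.10 against -0.81) and, by most, Fcgrt (-0.77 against -0.10). The clusters without a name entered the mix as 1 class, with 8.52% of UMIs in vehicle and 19.8% in high dose. In that class the median log2 ratio of the 4 receptor genes with enough UMIs was -1.49, and that of all genes 0.06. Of the 4 receptor genes, 3 were lower past 2-fold in high dose and 1 in low dose. The class pooled 5 clusters with unlike leading genes. The share of all genes past 2-fold is not given for this class, so these counts are not read as a result about the receptors. The part of this class in these differences was not tested. Fcmr was at 55.7 CPM in vehicle and 57.8 in high dose (0.05, -0.07 to 0.17), where the mix alone gave 0.30.

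In the spleen-labelled library the high dose group had more Fcgrt over all cells, at 119.6 CPM against 62.7 in vehicle (0.93, 0.78 to 1.09), and the mix alone gave 1.24. Ratios from the mix carry no interval and no minimum of cells. The vehicle level rested on 6 cells for the Kupffer cell-like class and on 11 for the 4T1 tumor cell-like class. These classes held 0.616% and 1.82% of UMIs in vehicle and 5.67% and 20.1% in high dose. Fcgr2b was at 166 CPM in vehicle, 195 in low dose and 202 in high dose (0.29 in high dose, 0.18 to 0.39), and the mix alone gave 0.51. Fcgr3 and Fcgr4 differed by -0.03 and 0.02, with intervals that spanned 0, and Fcer1g by -0.32 (-0.36 to -0.28), where the mix gave -0.35. Fcmr was the furthest from vehicle, at 6.59 CPM in vehicle and 15.8 in high dose (1.26, 0.78 to 1.76), and the mix alone gave 0.82. Endothelial-like cells made up 4.26% of the vehicle cells, 7.99% in low dose and 12.7% in high dose, and they held 11.1%, 30.6% and 36.6% of the Fcgr2b UMIs. Macrophage-like cells held 48.3%, 37.5% and 40.1% of them. For Fcgr4 the neutrophil-like part went from 24.9% in vehicle to 12.1% in high dose and the Kupffer cell-like part from 2.02% to 18.8%. Shares of cells carry the hashtag calls, and 1627 of the 4830 barcodes of this library had no hashtag call.

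**Figure D4:**
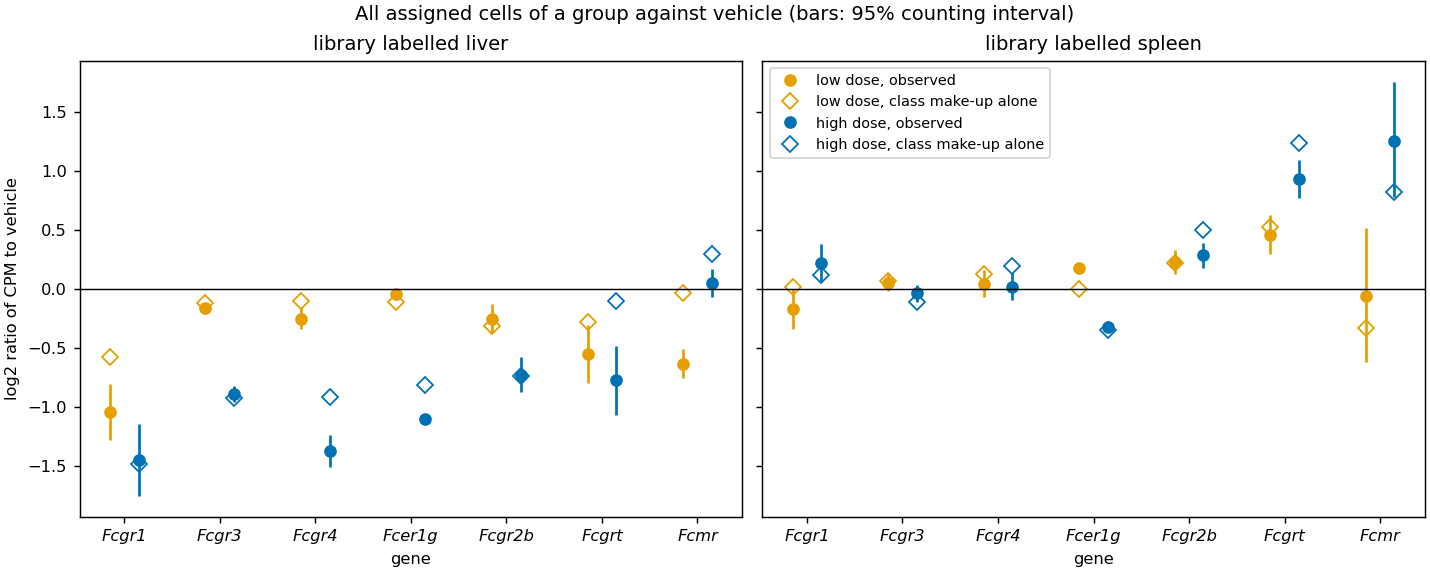
Log2 ratio of CPM over all assigned cells of a dose group to vehicle (y axis; filled points, bars for 95% counting intervals) beside the ratio from class make-up alone (open diamonds) for each gene (x axis), low dose in orange and high dose in blue. In the liver-labelled library both values are near each other for Fcgr1, Fcgr3 and Fcgr2b in high dose, and the observed ratio lies below the diamond for Fcgr4, Fcer1g and Fcgrt.

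**Figure D5:**
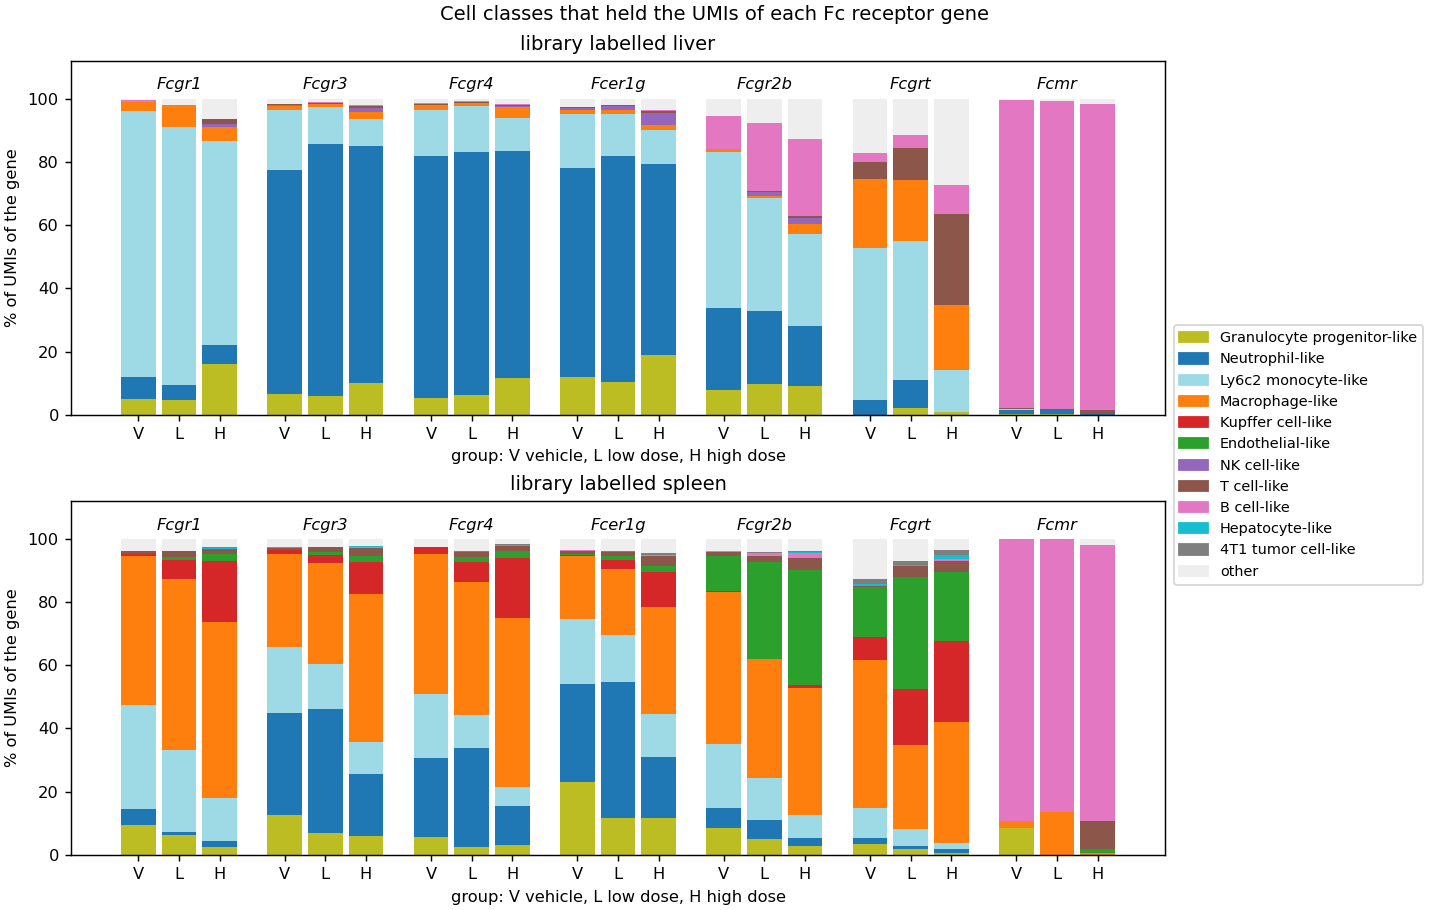
Share of each gene's UMIs (y axis, %) held by each cell class (colors) in vehicle (V), low dose (L) and high dose (H), for both libraries. In the spleen-labelled library the endothelial-like part of Fcgr2b is 11.1%, 30.6% and 36.6%, and Fcmr is held by B cell-like cells throughout.

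Between the libraries, macrophage-like cells differed in more receptor genes than the other myeloid classes compared. In vehicle, the class of the spleen-labelled library exceeded that of the liver-labelled library in Fcgr2b (767 against 41.9 CPM, 4.19, 3.30 to 5.26), Fcgr1 (318 against 58.7 CPM, 2.44, 1.66 to 3.33), Fcgr4 (1.96, 1.49 to 2.46) and Fcgr3 (1.27, 0.97 to 1.58). Fcgrt did not (-0.20, -0.58 to 0.20), nor did Fcer1g pass 2-fold (0.39, 0.23 to 0.55), so 4 of 6 passed, while 21.2% of 2895 genes did. These were classes of different leading genes and depth, with a median of 11085.5 UMIs in the spleen-labelled and 1602 in the liver-labelled library. In Ly6c2 monocyte-like cells 1 of 6 passed, Fcgr4 at 291 against 99.5 CPM (1.55, 1.29 to 1.80), with 11.6% of genes past 2-fold. In neutrophil-like cells 1 of 5 passed, Fcgr1 at 14.2 against 2.68 CPM (2.41, 1.59 to 3.21), with 8.1% of genes. With both other ways of calling hashtags that count was 0. In the spleen-labelled library the 25 Fcgr1 UMIs lay in 8 of 300 cells, with a median of 11262.5 UMIs against 3408 in the rest. In the liver-labelled library 32 lay in 29 of 1429 cells (median 18698 against 4306 UMIs). The counting interval does not cover such clumping in few cells. In neutrophil-like cells Fcgr3 differed by 0.12 (0.02 to 0.23) and Fcgr4 by 0.10 (-0.09 to 0.28). In granulocyte progenitor-like cells Fcgr1 differed by 1.34 (0.60 to 2.11) and Fcer1g by -0.76 (-0.84 to -0.68), where the median gene was at 0.50.

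Genes that act with these receptors were read from a list of 25, in neutrophil-like cells. In high dose, 16 of them had enough UMIs in the liver-labelled library and 14 in the spleen-labelled library, and 1 of them passed 2-fold in each, against 13.9% and 6.36% of all genes in these contrasts. In both it was Lat2, an adaptor of Fc receptor signaling, which was higher, at 14.1 CPM in vehicle and 32.4 in high dose of the liver-labelled library, and at 24.5 and 51.6 CPM in the spleen-labelled library, with log2 ratios of 1.20 (0.86 to 1.54) and 1.08 (0.51 to 1.66). In low dose Lat2 was the only one past 2-fold in the spleen-labelled library, and it was lower (-1.01, -1.69 to -0.34), and 0 of 17 passed in the liver-labelled library. All 10 genes of the activating list had enough UMIs, with a median log2 ratio of -0.27 in the liver-labelled library and 0.06 in the spleen-labelled library in high dose. The median gene of these contrasts was at -0.34 and -0.06, liver-labelled first. The part of the shift between neutrophil-like clusters in the ratios of the list was not tested. Syk, the kinase that the gamma chain recruits, was the lowest in the liver-labelled library (-0.59), and the kinase Lyn was at 0.03. Of the inhibitory list, Inpp5d, the phosphatase recruited by Fcgr2b, was at -0.05 and -0.42 in the 2 libraries, liver-labelled first. B2m, the partner of Fcgrt, was at -0.47 and -0.16. Fcer1a and Ms4a2, chains of the IgE receptor of mast cells and basophils, had 0 UMIs in vehicle neutrophil-like cells of the liver-labelled library, which allows up to 0.251 CPM, and 8 and 2 UMIs in the 199 such cells of the high dose group.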

How the data were processed

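The authors deposited filtered Cell Ranger matrices of raw UMI counts per gene and barcode, with hashtag counts, for 2 libraries of 3 groups of 2 pooled mice. The submitters' processing notes name Cell Ranger 6.0.0, Seurat and mm10, while the matrix header names version 5.0.0. No column of per-sample values was left unused. From these deposited counts, barcodes were assigned with HTODemux (quantile 0.99), so that hashtag doublets (616 and 215 in the 2 libraries, liver-labelled first) and negatives (540 and 1627) were left out. Doublets within a hashtag were kept, with removal of Scrublet calls (248 and 1, scanpy 1.11.5) as an alternative, and 1 call in 4830 barcodes means that it did not work in the second library. No further filter on cells was used. Cells were clustered by SCTransform (sctransform 0.4.2, Seurat 5.3.0, R 4.3.3) with 30 principal components at resolution 0.8, leaving the 7 genes and the 25 pathway genes out of the variable features. A cluster was named X-like from at least 3 raised markers, and names differ from the study's since they were rebuilt. The submitted cell labels give leukocytes by density gradient, the study's methods CD11b beads.

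UMIs were summed per class and group and given per 1000000 (CPM) with exact Poisson 95% intervals. Log2 ratios carry exact conditional binomial intervals. A gene was counted as past 2-fold from at least 50 UMIs over both groups, in groups of at least 20 cells. Shares of cells with a UMI were taken after thinning each cell to 500 UMIs, with Clopper-Pearson intervals. All intervals and limits (3 counts for a count of 0) cover counting error only. Tools were pandas 2.3.3, scipy 1.17.1 and numpy 2.4.6 under Python 3.11.15. The ratio step was tested on simulated data: for neutrophil-like cells in high dose, true log2 changes of 1.5 were called in 100% of 95 genes among 7312 genes (liver-labelled library) and in 96.4% of 83 among 3673 (spleen-labelled library). The simulated counts had Poisson error alone, without variation between mice, cells or clusters. This checks the arithmetic of the step and cannot show how often calls in the real data are right. The text names the 7 genes, pathway genes past 2-fold or at the ends of the range with the roles they have, the 3 genes most like each receptor, and markers. Kinases and partners inside the range (Lyn, Inpp5d in the liver-labelled library, B2m, Fcer1a, Ms4a2) were named after their values were seen. The members and lists were chosen with earlier results of these data known. Alternatives were other hashtag calls (MULTIseqDemux, dominant hashtag), resolutions, normalization, cell filters, weighting, scaling, fold and UMI minimum.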

Additional observations from a re-analysis of the deposited data

Results flagged for a closer look

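Fcgr4 in Ly6c2 monocyte-like cells went opposite ways in low dose in the libraries: the log2 ratio to vehicle was 0.49 (0.24 to 0.73) in the liver-labelled library and -0.66 (-0.95 to -0.36) in the spleen-labelled library. The difference between the libraries was not tested.

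The 1627 barcodes of the spleen-labelled library without a hashtag call belong to no group and entered no comparison. They carried Fcgr2b at 225 CPM, Fcgrt at 163 CPM and Fcmr at 47.3 CPM, above the 166, 62.7 and 6.59 CPM of all vehicle cells of that library, and this difference was not tested either.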

How the results depend on the processing

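No paired analysis was possible because each group was 1 pooled sample per library, and for the same reason no replicate could be left out. In the named classes 2 ratios passed 2-fold, both in endothelial-like cells. They kept their sign in the alternatives that gave them a value. These were 7 for Fcgr3 in high dose (2.14 to 2.78) and 9 for Fcer1g in low dose (0.29 to 1.07, so that 2-fold was lost in some). Fcgr3 had no value with either other hashtag call, and neither had one under the cell filter, which left 7 vehicle cells. With at least 20 UMIs in place of 50, and with no minimum, the number of receptor genes past 2-fold in neutrophil-like cells went from 0 to 1 for low dose in both libraries and for high dose in the spleen-labelled library. These were Fcgr1 in low dose (log2 ratios of -1.57 and -2.59 in the 2 libraries, liver-labelled first) and Fcgrt in high dose (1.13, -0.15 to 2.51), named after their values were seen. With the dominant hashtag it went to 1 for low dose in the liver-labelled library. Between the libraries the count of 1 in vehicle neutrophil-like cells became 0 at resolution 0.4, with log-normalization, with MULTIseqDemux and with the dominant hashtag, and 2 with a fold of 1.5, with at least 20 UMIs and with no minimum. At resolution 0.4 the highest class was kept for 9 of 14 combinations of gene and library. Under the cell filter the highest class of Fcgr2b and Fcgrt in the spleen-labelled library changed from endothelial-like to macrophage-like. Of the single ratios, 23 moved by more than the distance from the middle to the end of their counting interval when each cell was weighted equally, 19 with MULTIseqDemux, 14 with log-normalization, 11 with the dominant hashtag, 10 at resolution 0.4, 7 at resolution 1.6, 6 without the 20 most abundant genes, 1 without Scrublet calls and 0 with all variable features or the cell filter. Of the 104 ratios, resolution 0.4 gave a value for 80, the cell filter for 97 and each other hashtag call for all but 1. The cause of these shifts was not tested. Depth limits Fcgr1 and Fcgrt in neutrophil-like cells and all receptors in the 35 vehicle endothelial-like cells.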
